A study of Mus musculus with 10 samples.

Results

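The genes of sterol and fatty acid synthesis were examined in mouse cardiomyocytes, which are heart muscle cells, given a dominant-negative form of MKL1 (dnMKL1). MKL1, also called MRTF-A, helps serum response factor (SRF) switch on its targets, and a dominant-negative version blocks that activity. The set was defined by gene symbol, and it was chosen with earlier results of these data known. It holds 35 genes of the 23337 in the authors' deposited table: 17 enzymes of cholesterol synthesis, 6 genes of sterol sensing and transport, and 12 genes of fatty acid synthesis, elongation and desaturation. Of these, 34 stood in the table under their current symbol, and Msmo1 stood there under its older symbol Sc4mol. All 35 passed the authors' filter on low counts and had an adjusted p-value.

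All mice were wild type and all received an adeno-associated virus of serotype AAV9 on postnatal day 1, at 5e+08 viral genomes per gram, and cells were taken on postnatal day 14. The virus of the GFP group (5 libraries) carried AAV9-cTNT-GFP and that of the dnMKL1 group (5 libraries) AAV9-cTNT-dnMKL1-GFP, so that both groups carried GFP. The cTNT (cardiac troponin T) promoter restricts expression from the vector mainly to cardiomyocytes. Cells were freed by collagenase perfusion and sorted by fluorescence, and the comparison asks which transcripts differ when dnMKL1 is present. Mkl1 itself, read first as a check of the labels, had a log2 fold change of 9.80 (SE 0.15) in the authors' deposited table, and its sign was used to set the direction of all values: positive means higher in the dnMKL1 group. Vector and endogenous reads are not separated in that value.

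Cells build cholesterol from acetyl-CoA through mevalonate, farnesyl diphosphate, squalene and lanosterol, and they build fatty acids from acetyl-CoA through malonyl-CoA. Both routes are under the control of the SREBP transcription factors, which are made as membrane proteins of the endoplasmic reticulum, carried to the Golgi by SCAP when sterol is low, and held back by INSIG proteins when sterol is high. In heart muscle, which burns far more fatty acid than it makes, malonyl-CoA is best known as a brake on fatty acid entry into mitochondria.

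Promoter sequence was examined because SREBP works at promoters beside the factors NF-Y and Sp1. RefSeq windows of 300 bases (GRCm38.p6), from 250 bases before to 50 after a start, matched 28 of the 35 genes, with 37 windows in all. Fdps, Fdft1, Sqle, Stard4, Scd1, Scd2 and Fads1 had no match by symbol. The 4 stretches below are the 250 bases before the start of 1 gene that was lower in the dnMKL1 group (Hmgcs1) and 3 that were higher (Insig1, Lss and Fasn). They are shown 5′ to 3′ on the strand of the gene, and capitals mark the motifs that were searched: TCACNCCAC, a form of the sterol regulatory element, CCAAT (the NF-Y motif), GGGCGG (Sp1), CACGTG (an E-box) and the CArG box of SRF. Each was searched on both strands, so that ATTGG and CCGCCC are CCAAT and GGGCGG read on the other strand.
Hmgcs1: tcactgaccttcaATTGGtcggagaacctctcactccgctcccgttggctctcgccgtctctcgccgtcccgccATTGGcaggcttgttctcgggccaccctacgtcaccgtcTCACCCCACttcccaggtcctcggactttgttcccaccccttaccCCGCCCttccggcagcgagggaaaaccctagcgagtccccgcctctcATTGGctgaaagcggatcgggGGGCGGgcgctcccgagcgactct
Insig1: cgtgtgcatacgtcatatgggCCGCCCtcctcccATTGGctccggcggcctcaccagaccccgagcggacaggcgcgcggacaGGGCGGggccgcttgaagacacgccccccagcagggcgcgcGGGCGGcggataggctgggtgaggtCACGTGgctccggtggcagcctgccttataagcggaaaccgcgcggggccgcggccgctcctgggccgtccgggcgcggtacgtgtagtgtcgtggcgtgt
Lss: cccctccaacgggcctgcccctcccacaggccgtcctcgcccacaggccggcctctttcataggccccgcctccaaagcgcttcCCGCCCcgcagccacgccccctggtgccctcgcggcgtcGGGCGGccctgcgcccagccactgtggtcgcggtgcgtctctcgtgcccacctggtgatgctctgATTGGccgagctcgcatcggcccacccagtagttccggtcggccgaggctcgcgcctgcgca
Fasn: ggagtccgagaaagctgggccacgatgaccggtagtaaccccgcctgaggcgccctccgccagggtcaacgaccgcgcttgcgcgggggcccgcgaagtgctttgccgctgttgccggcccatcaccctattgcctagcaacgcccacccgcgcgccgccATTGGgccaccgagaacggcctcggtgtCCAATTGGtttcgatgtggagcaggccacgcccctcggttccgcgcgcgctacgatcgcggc
The stretches lie at chr13:119690101-119690350 (plus strand) for Hmgcs1, chr5:28071162-28071411 (plus strand) for Insig1, chr10:76531355-76531604 (plus strand) for Lss and chr11:120824548-120824797 (minus strand) for Fasn.

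Among the 28 genes with a window, CCAAT occurred in 24, which is 85.7%, against 41.1% of the 27025 genes with a window in the RefSeq table and 42.8% of the 9931 of these that also had an adjusted p-value. GGGCGG occurred in 22 of the 28 genes, or 78.6%, against 38.2% of all genes with a window and 67.8% of those with an adjusted p-value. CACGTG occurred in 6 (Dhcr7, Elovl5, Hsd17b7, Insig1, Sc5d and Scap), or 21.4%, against 8.09% of all genes with a window and 11.6% of those with an adjusted p-value. The sterol motif TCACNCCAC occurred in Hmgcs1 alone, with its first base at position -137 from the start, against 1.44% of all genes with a window and 1.39% of those with an adjusted p-value. The CArG box was in the windows of 0 of the 28 genes and in 1.81% of all genes with a window and 1.66% of those with an adjusted p-value. CCAAT was present in 10 of 11 genes that were higher with dnMKL1, in 3 of 3 that were lower and in 11 of 14 that passed the test in neither direction. The 3 lower genes were Hmgcs1, Pmvk and Insig2, whose falls depended on the scaling described below. Fdft1 and Scd2, which also fell, had no window. With so few lower genes, these counts cannot show whether CCAAT separates the directions of change. These matches are descriptions of letters in a window and were given no test.

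Of the 35 genes, 12 were higher and 5 were lower in the dnMKL1 group at a Benjamini-Hochberg adjusted Wald p-value under 0.05 in the authors' deposited table, and 18 passed in neither direction. That makes 48.6% called, with 34.3% up and 14.3% down. For all 14056 genes with an adjusted p-value the shares were 34.1% called, 16.6% up and 17.4% down. The set thus stood above that background for rises and somewhat below it for falls, with no test of either difference. The genes that rose were Lss, Nsdhl, Ebp, Dhcr7, Srebf1, Srebf2, Insig1, Scap, Acly, Fasn, Elovl1 and Fads1, and those that fell were Hmgcs1, Pmvk, Fdft1, Insig2 and Scd2. The median log2 fold change was 0.17 over the 35 genes, computed from the authors' deposited table, against 0.021 over all 14056. The single values ran from -1.30 for Scd2 to 1.16 for Lss.

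**Figure D1:**
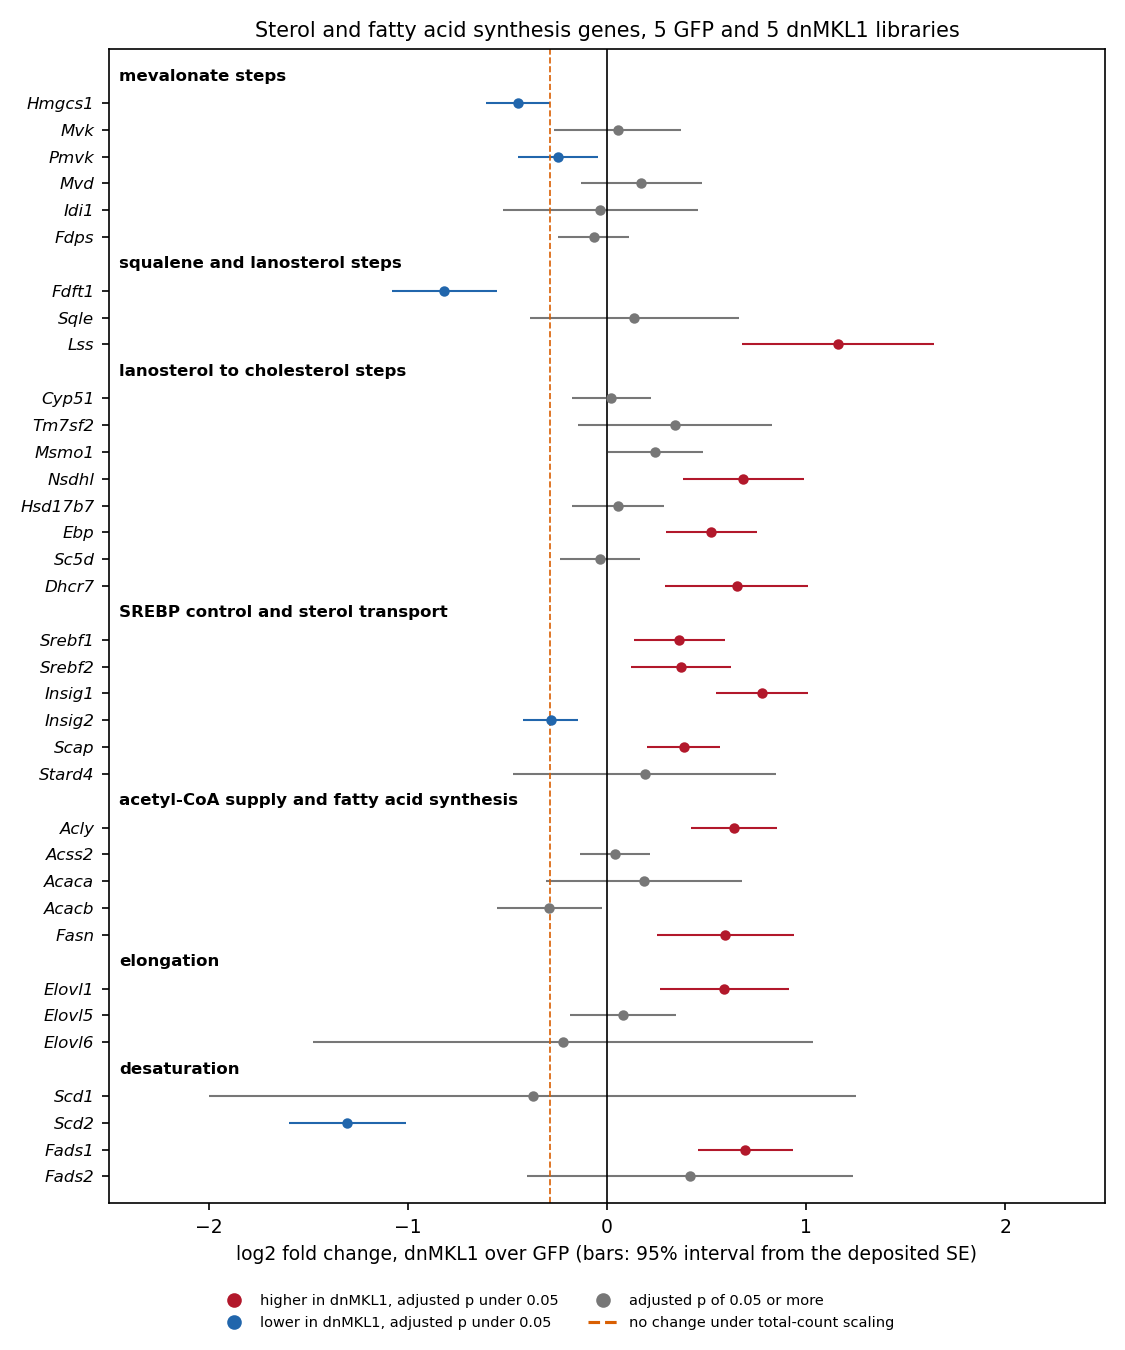
Log2 fold change of each gene (dnMKL1 over GFP, x axis) by role, with bars for the 95% interval from the deposited SE; colours give the call at an adjusted p of 0.05, and the dashed line at -0.29 is where no change would lie if both groups had the same total. Of the 6 mevalonate genes 4 lie left of 0, while 5 of the 6 genes of SREBP control lie right of it, with Scd2 at -1.30 the lowest point and Lss at 1.16 the highest.

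These directions depend on how the libraries were scaled. Median-centring, which sets the median change of genes with base means of at least 10 to 0, adds -0.0041. With it all 35 genes kept their call. The group means implied by the base mean and the fold change summed to 13330302 with GFP and 10915829 with dnMKL1, in normalized counts. Of these totals, the 8 cardiomyocyte markers read below held 1438325 and 789908. Setting the totals equal adds 0.29 to every log2 fold change. Then 23 of the 35 genes (65.7%) passed, against 47.0% of all genes: 21 were up, against 40.4%, and 2 (Fdft1 and Scd2) were down, against 6.60%. The 12 genes that rose also rose under total-count scaling, as they must when a positive constant is added to every value. The falls of Hmgcs1, Pmvk and Insig2 did not pass there. The size factors of the libraries, recovered from genes with 1 read in 1 library, ran from 0.660 to 1.28 (GFP) and from 0.809 to 1.58 (dnMKL1), with estimated totals of 8803028 to 17228616 counts. The libraries are bulk samples, in which fewer cells of a type and less RNA per cell cannot be told apart. The submitters call the libraries of a group biological replicates, and how many hearts went into each is not given in the sources used here. Values per library are not used here, so that group means carry no SD and the spread between libraries enters through the deposited standard error (SE).

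Of the 6 genes of SREBP control and sterol transport, 4 were higher and 1 was lower, against 16.6% and 17.4% of all genes with an adjusted p-value. Under total-count scaling 4 were higher and 0 lower, against 40.4% and 6.60%. Srebf1 and Srebf2 encode the SREBP factors themselves. The implied mean of Srebf1 rose from 617 to 795 normalized counts between GFP and dnMKL1, a log2 fold change of 0.36 (SE 0.12, adjusted p = 0.0081) in the authors' deposited table. That of Srebf2 rose from 206 to 267, a change of 0.37 (SE 0.13, adjusted p = 0.014) in the authors' deposited table. Scap, which escorts SREBP to the Golgi, rose from an implied 731 to 955 normalized counts, with a log2 fold change of 0.39 (SE 0.09, adjusted p = 2.4e-04) in the authors' deposited table. These 3 rises were alike in size, at 1.29, 1.30 and 1.31 times the GFP level.

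The INSIG genes, whose proteins retain the SCAP-SREBP complex, moved in opposite directions under the authors' scaling. Insig1, itself a well-known SREBP target, rose from an implied 123 to 211 normalized counts, or 1.71 times the GFP level (95% interval 1.46 to 2.01), with an adjusted p of 1.1e-09 in the authors' deposited table. Insig2 fell from an implied 1628 to 1339 normalized counts, to 0.822 of the GFP level (0.747 to 0.905), with an adjusted p of 4.1e-04 in the authors' deposited table. Under total-count scaling the value of Insig2 was 0.0057 (adjusted p = 0.960), so that its fall was not present there, while Insig1 stayed higher at 1.07 (adjusted p = 9.4e-18). Per kilobase of coding transcript, Insig2 was far more abundant in both groups, at an implied 604 and 496 normalized counts per kilobase against 45.8 and 78.4 for Insig1. Stard4, a carrier of sterol through the cytosol, was low at a base mean of 24.3, and its log2 fold change of 0.19 (SE 0.34) in the authors' deposited table did not pass (adjusted p = 0.734).

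In the mevalonate steps, 2 of 6 genes fell and 0 rose, against 17.4% and 16.6% of all genes with an adjusted p-value. Hmgcs1, which makes HMG-CoA in the cytosol, fell from an implied 1045 to 767 normalized counts, a log2 fold change of -0.45 (SE 0.08, adjusted p = 5.4e-07) in the authors' deposited table. Pmvk, which adds the second phosphate to mevalonate, fell from an implied 245 to 206, a change of -0.25 (SE 0.10) with an adjusted p of 0.0498 in the authors' deposited table, at the edge of the threshold. Under total-count scaling neither fall passed, with -0.16 (adjusted p = 0.097) for Hmgcs1 and a reversed 0.043 (adjusted p = 0.764) for Pmvk. Mvd (0.46, adjusted p = 0.0085) and Fdps (0.22, adjusted p = 0.036) passed there as higher. That makes 2 higher and 0 lower, against 40.4% higher and 6.60% lower among all genes. Under the authors' scaling the other 4 genes passed in neither direction: the authors' deposited table gave 0.054 (SE 0.16) for mevalonate kinase, Mvk, 0.17 (SE 0.15) for the decarboxylase Mvd, -0.033 (SE 0.25) for the isomerase Idi1 and -0.067 (SE 0.09) for the farnesyl diphosphate synthase Fdps. For Fdps the 95% interval of the ratio ran from 0.843 to 1.08. In a GENCODE comparison 30.5% of the stretches of 50 bases in the longest Idi1 transcript, and 11.7% of those of Fdps, also occurred in transcripts of other genes, so reads of these genes may have been lost or shared. The same share was 13.6% for Hmgcs1 and 13.1% for Scap.

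The next 3 steps held both a fall and a rise. Fdft1 encodes squalene synthase, which commits the route to sterols. Its implied mean fell from 385 to 218 normalized counts, to 0.567 of the GFP level (95% interval 0.473 to 0.681), with an adjusted p of 2.0e-08 in the authors' deposited table. Under total-count scaling it stayed lower at -0.53 (adjusted p = 3.4e-04). Exons of Fdft1 and Ctsb overlap over 774 bases, and 30.7% of the stretches of 50 bases in the longest Fdft1 transcript also occurred in transcripts of Ctsb or Gm6781. Ctsb, with a base mean of 10091, had a log2 fold change of -0.047 (SE 0.07) in the authors' deposited table; the part of shared reads in the value of Fdft1 was not tested. Sqle, squalene epoxidase, had a base mean of 43.8 and a log2 fold change of 0.14 (SE 0.27, adjusted p = 0.759) in the authors' deposited table. Lss, which closes the ring to lanosterol, rose most of the 35 genes, from an implied 34.5 to 77.2 normalized counts, or 2.24 times the GFP level (1.60 to 3.12), with an adjusted p of 2.1e-05 in the authors' deposited table. Lss was scarce in both groups, at an implied 7.40 and 16.5 normalized counts per kilobase.

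From lanosterol to cholesterol, 3 of 8 genes (37.5%) rose and 0 fell, against 16.6% and 17.4% of all genes with an adjusted p-value. Nsdhl, a dehydrogenase of the demethylation complex, rose from an implied 159 to 255 normalized counts, a log2 fold change of 0.69 (SE 0.16, adjusted p = 8.0e-05) in the authors' deposited table. Ebp, the sterol isomerase, rose from an implied 180 to 259, a change of 0.52 (SE 0.12, adjusted p = 5.3e-05) in the authors' deposited table. Dhcr7, which carries out the final reduction to cholesterol, rose from an implied 134 to 211, a change of 0.65 (SE 0.18, adjusted p = 0.0019) in the authors' deposited table. The methyl oxidase Msmo1 stood at 0.24 (SE 0.12) in the authors' deposited table, with an unadjusted p of 0.045 and an adjusted p of 0.110. Cyp51, Hsd17b7 and Sc5d, which demethylate, reduce and desaturate the sterol, lay near 0 in the authors' deposited table, at 0.023 (SE 0.10), 0.058 (SE 0.12) and -0.033 (SE 0.10). Tm7sf2, a sterol reductase with a base mean of 31.0, had 0.34 (SE 0.25, adjusted p = 0.313) in the authors' deposited table. Under total-count scaling Msmo1, Cyp51, Hsd17b7, Sc5d and Tm7sf2 also passed as higher, at 0.53, 0.31, 0.35, 0.26 and 0.63. That makes 8 of 8, where that scaling adds 0.29 to every value and calls 40.4% of all genes higher.

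Across the 17 cholesterol enzymes, 4 were higher and 3 lower, with a median log2 fold change of 0.058, computed from the authors' deposited table. These shares are 23.5% higher and 17.6% lower, against 16.6% and 17.4% of all genes with an adjusted p-value. Under total-count scaling the 17 had 11 higher, 1 lower (Fdft1) and a median of 0.35. Among all genes 40.4% were then higher and 6.60% lower. The sums of the implied means of the 17 enzymes were 4669 (GFP) and 4570 (dnMKL1) normalized counts. The 3 enzymes that fell (Hmgcs1, Pmvk and Fdft1) act up to squalene and the 4 that rose (Lss, Nsdhl, Ebp and Dhcr7) act after it. This order was noticed in the values, was not tested, and did not hold under total-count scaling, where Mvd and Fdps, which act before squalene, passed as higher and only Fdft1 of the 17 stayed lower.

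For fatty acid synthesis, 2 of 5 genes rose and 0 fell, against 16.6% and 17.4% of all genes with an adjusted p-value. Acly, which makes cytosolic acetyl-CoA from citrate, rose from an implied 612 to 953 normalized counts, or 1.56 times the GFP level (95% interval 1.34 to 1.81), with an adjusted p of 1.3e-07 in the authors' deposited table. Fasn, the fatty acid synthase, rose from an implied 1146 to 1731, or 1.51 times the GFP level (1.19 to 1.92), with an adjusted p of 0.0034 in the authors' deposited table. Acss2, which makes acetyl-CoA from acetate, did not pass, and its ratio of 1.03 had an interval of 0.909 to 1.16 (adjusted p = 0.794) in the authors' deposited table. Under total-count scaling it passed as higher at 0.33 (adjusted p = 0.0011), which makes 3 of the 5 genes higher, against 40.4% of all genes.

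The acetyl-CoA carboxylases make malonyl-CoA, Acaca in the cytosol and Acacb at the mitochondrial surface. Acacb was the most abundant of the 35 genes per kilobase, at an implied 718 (GFP) and 588 (dnMKL1) normalized counts per kilobase. Its log2 fold change of -0.29 (SE 0.13) in the authors' deposited table had an unadjusted p of 0.032 and an adjusted p of 0.085, and under total-count scaling it was -2.1e-04. Acaca stood at 4.36 and 4.97 per kilobase, and its log2 fold change was 0.19 (SE 0.25, adjusted p = 0.635) in the authors' deposited table. Of its stretches of 50 bases, 52.6% also occurred in the transcript of Gm5182, so that the level of Acaca may be too low if reads matching more than 1 place were left out.

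Elongation (3 genes) and desaturation (4 genes) each held 1 gene that rose, against 16.6% of all genes with an adjusted p-value. Elovl1, an elongase of very long chains, rose from an implied 175 to 264 normalized counts, a log2 fold change of 0.59 (SE 0.17, adjusted p = 0.0019) in the authors' deposited table. Elovl5, which extends polyunsaturated chains, was more abundant per kilobase and lay at 0.080 (SE 0.14, adjusted p = 0.722) in the authors' deposited table, but passed as higher under total-count scaling at 0.37 (adjusted p = 0.018). Fads1, the delta-5 desaturase of polyunsaturated fatty acids, rose from an implied 178 to 288 normalized counts, a change of 0.69 (SE 0.12, adjusted p = 1.9e-07) in the authors' deposited table. Its neighbour Fads2, the delta-6 desaturase, had a base mean of 11.6 and a change of 0.42 (SE 0.42, adjusted p = 0.498) in the authors' deposited table.

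Scd2, a stearoyl-CoA desaturase that makes monounsaturated fatty acids, fell most of the 35 genes. Its implied mean was 1148 normalized counts with GFP and 465 with dnMKL1, or 0.405 of the GFP level (95% interval 0.330 to 0.496), and the log2 fold change was -1.30 (SE 0.15, adjusted p = 3.1e-16) in the authors' deposited table. Under total-count scaling it was -1.02 (adjusted p = 2.1e-10). Scd2 lies at chr19:44293674-44306864 (GENCODE M21, GRCm38) in a row with its paralogs. Scd4, at chr19:44333092-44346743, was similarly abundant with a base mean of 850 and fell by 0.92 on the log2 scale (SE 0.29, adjusted p = 0.0068) in the authors' deposited table, though under total-count scaling its value of -0.63 had an adjusted p of 0.062. Scd1 and Scd3 were nearly absent, with base means of 3.56 and 0.172 in the authors' deposited table, so that a change in them was not detectable at this depth; for Scd1 the interval of the ratio ran from 0.251 to 2.38. Only 4.01% of the stretches of 50 bases in the longest Scd2 transcript occurred in transcripts of other genes. Elovl6, which extends the chains that the desaturases use, was also low, with a base mean of 5.57 and a log2 fold change of -0.22 (SE 0.64, adjusted p = 0.846) in the authors' deposited table.

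**Figure D2:**
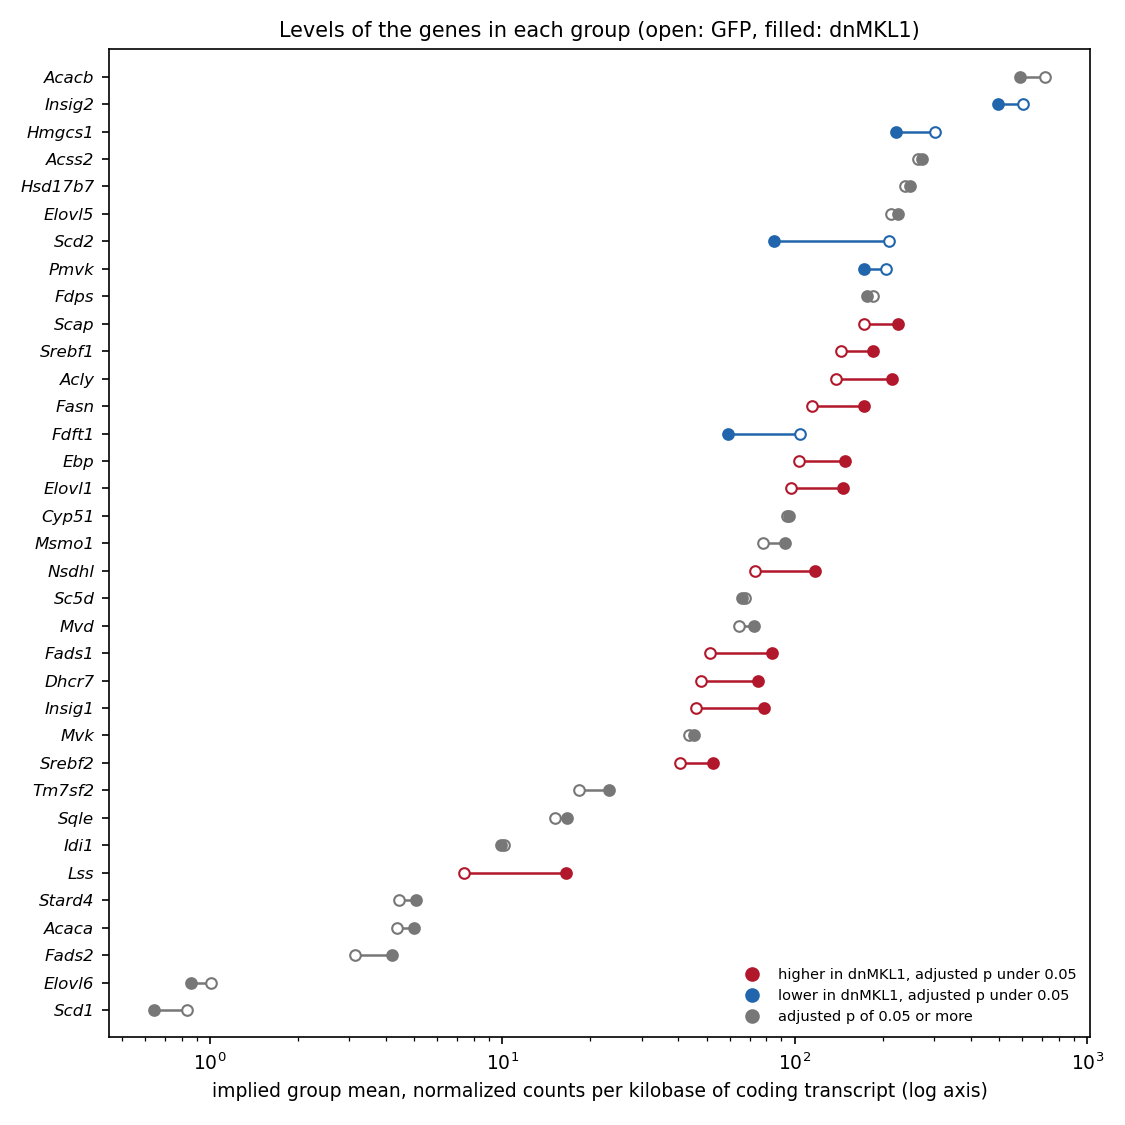
Implied mean of each gene in the GFP group (open circles) and the dnMKL1 group (filled circles), in normalized counts per kilobase of coding transcript on a log axis, ordered by the GFP level. Acacb (718 and 588) and Insig2 (604 and 496) stand at the top, Scd1 and Elovl6 at the bottom, and Scd2 shows the widest fall, from 210 to 85.2.

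The SE was taken as that of a negative binomial fit with the recovered size factors. The spread between libraries beyond counting error that this implies, as a coefficient of variation, was not measured from values per library. This implied coefficient had a median of 13.5% over the 35 genes, with 7.29% for Insig2 at the lower end and 73.3% for Scd1 at the upper. For the 5 genes that fell, it was 8.23% for Hmgcs1, 9.05% for Pmvk, 13.4% for Fdft1, 7.29% for Insig2 and 16.0% for Scd2. The change of Pmvk (-0.25) was the smallest that passed among the 35, and the genes with base means under 50 had SEs from 0.25 to 0.83.

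Abundance was compared with the background as well, since calls are easier for abundant genes. Among the 25 genes whose base mean reached 100, 16 were called when adjusted over such genes alone, which is 64.0% against a background of 45.1%. By direction, 44.0% were higher against 19.4%, and 20.0% were lower against 25.7%. In the class from 100 to 1000 normalized counts the median log2 fold change was 0.24 over 21 of the genes and 0.0076 over all 6515 genes. In the class from 1000 to 10000 it was -0.11 over 4 of the genes and -0.13 over all 1986. These medians were computed from the authors' deposited table and describe the set without a test. Other rules gave these counts. At an adjusted p under 0.1, 12 genes were higher (background 19.8%) and 6 lower (19.9%), or 18 in all (39.7%), and under 0.01 there were 11 higher (11.9%) and 4 lower (13.4%), or 15 in all (25.2%). With adjustment over all 17363 p-values, 12 were higher (12.8%) and 4 lower (13.7%), or 16 in all (26.5%). A required change of at least 0.5 on the log2 scale lowered the count from 17 and kept 9 higher (10.6%) and 2 lower (8.86%), or 11 in all (19.5%).

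**Figure D3:**
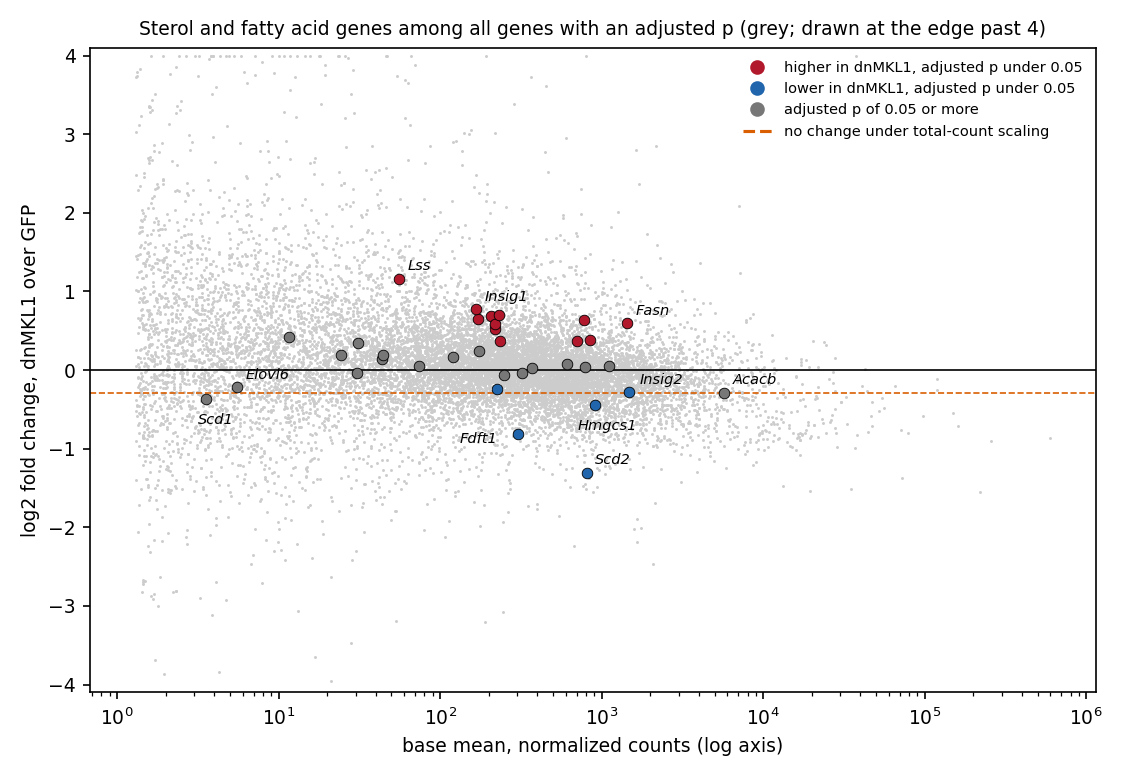
Base mean (normalized counts, log axis) against log2 fold change (dnMKL1 over GFP) for all 14056 genes with an adjusted p in grey and the 35 genes in colour by call. Of the 12 genes that rose, 10 lie between base means of 100 and 1000, and Scd2 at -1.30 is the lowest of the 35.

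Other genes of the pathways, 45 in all and 42 with an adjusted p-value, had 10 higher (23.8%) and 8 lower (19.0%), or 42.9% called. Of all genes with an adjusted p-value, 16.6% were higher and 17.4% lower, or 34.1% called. Slc25a1, the mitochondrial citrate carrier that supplies Acly with its substrate, rose from an implied 51.8 to 175 normalized counts, or 3.37 times (95% interval 2.57 to 4.43), with an adjusted p of 2.0e-16 in the authors' deposited table. Aacs, which makes acetoacetyl-CoA in the cytosol, rose by a log2 fold change of 0.82 (SE 0.15, adjusted p = 8.6e-07) in the authors' deposited table. Mid1ip1, an activator of acetyl-CoA carboxylase, rose by 0.65 (SE 0.26, adjusted p = 0.035) in the authors' deposited table. Mlxipl, which encodes the glucose-responsive lipogenic factor ChREBP, fell by 1.06 on the log2 scale (SE 0.18, adjusted p = 4.5e-08), and Mlycd, which degrades malonyl-CoA, fell by 0.87 (SE 0.19, adjusted p = 4.9e-05) in the authors' deposited table. Both falls also passed under total-count scaling.

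The enzymes that complete each elongation cycle were uneven. Hsd17b12, the ketoacyl reductase, rose by a log2 fold change of 0.95 (SE 0.12, adjusted p = 1.5e-14) in the authors' deposited table. Of the dehydratases, Hacd3 rose by 0.42 (SE 0.06, adjusted p = 1.5e-09), the muscle form Hacd1 fell by 0.82 on the log2 scale (SE 0.12, adjusted p = 7.4e-10) and Hacd2 stood at 0.093 (SE 0.18) in the authors' deposited table. The reductase Tecr had -0.040 (SE 0.11, adjusted p = 0.833) in the authors' deposited table and 0.25 (adjusted p = 0.047) under total-count scaling. The electron carriers of the desaturases, cytochrome b5 (Cyb5a) and its reductase (Cyb5r3), rose by 0.75 (SE 0.14) and 0.43 (SE 0.09) in the authors' deposited table, with adjusted p-values of 2.4e-06 and 4.0e-05. For the separate fatty acid synthesis of mitochondria, which feeds lipoic acid production, only 3 genes were read. All 3 were lower, against 17.4% of all genes with an adjusted p-value. The authors' deposited table gave -0.78 (SE 0.13) for Mcat, -0.44 (SE 0.12) for Oxsm and -0.68 (SE 0.13) for Mecr. Under total-count scaling Mcat and Mecr remained lower, and Oxsm at -0.15 did not pass (adjusted p = 0.332).

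Genes of SREBP cleavage and of sterol handling mostly passed in neither direction. The proteases Mbtps1 and Mbtps2, which release SREBP in the Golgi, had log2 fold changes of 0.19 (SE 0.09, adjusted p = 0.085) and -0.038 (SE 0.15, adjusted p = 0.890) in the authors' deposited table. Among genes of sterol-regulated degradation, the ubiquitin ligase Rnf139 fell by 0.50 on the log2 scale (SE 0.08, adjusted p = 6.8e-08) and Faf2 rose by 0.29 (SE 0.09, adjusted p = 0.0057) in the authors' deposited table. Npc2, which moves cholesterol out of lysosomes, rose by 0.64 (SE 0.09, adjusted p = 1.4e-11), and Cyp27a1, the sterol 27-hydroxylase, rose by 1.34 (SE 0.20, adjusted p = 3.3e-10) in the authors' deposited table. The other 6 genes of sterol export, storage and LXR, the nuclear receptor for oxysterols, did not pass, among them Nr1h2 at 0.088 (SE 0.09) and Abca1 at -0.21 (SE 0.24) in the authors' deposited table. With total-count scaling, 21 of the 42 pathway genes were higher and 6 lower, against 40.4% higher and 6.60% lower among all genes. Mbtps1 and Nr1h2 then passed as higher (0.48 and 0.38).

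**Figure D4:**
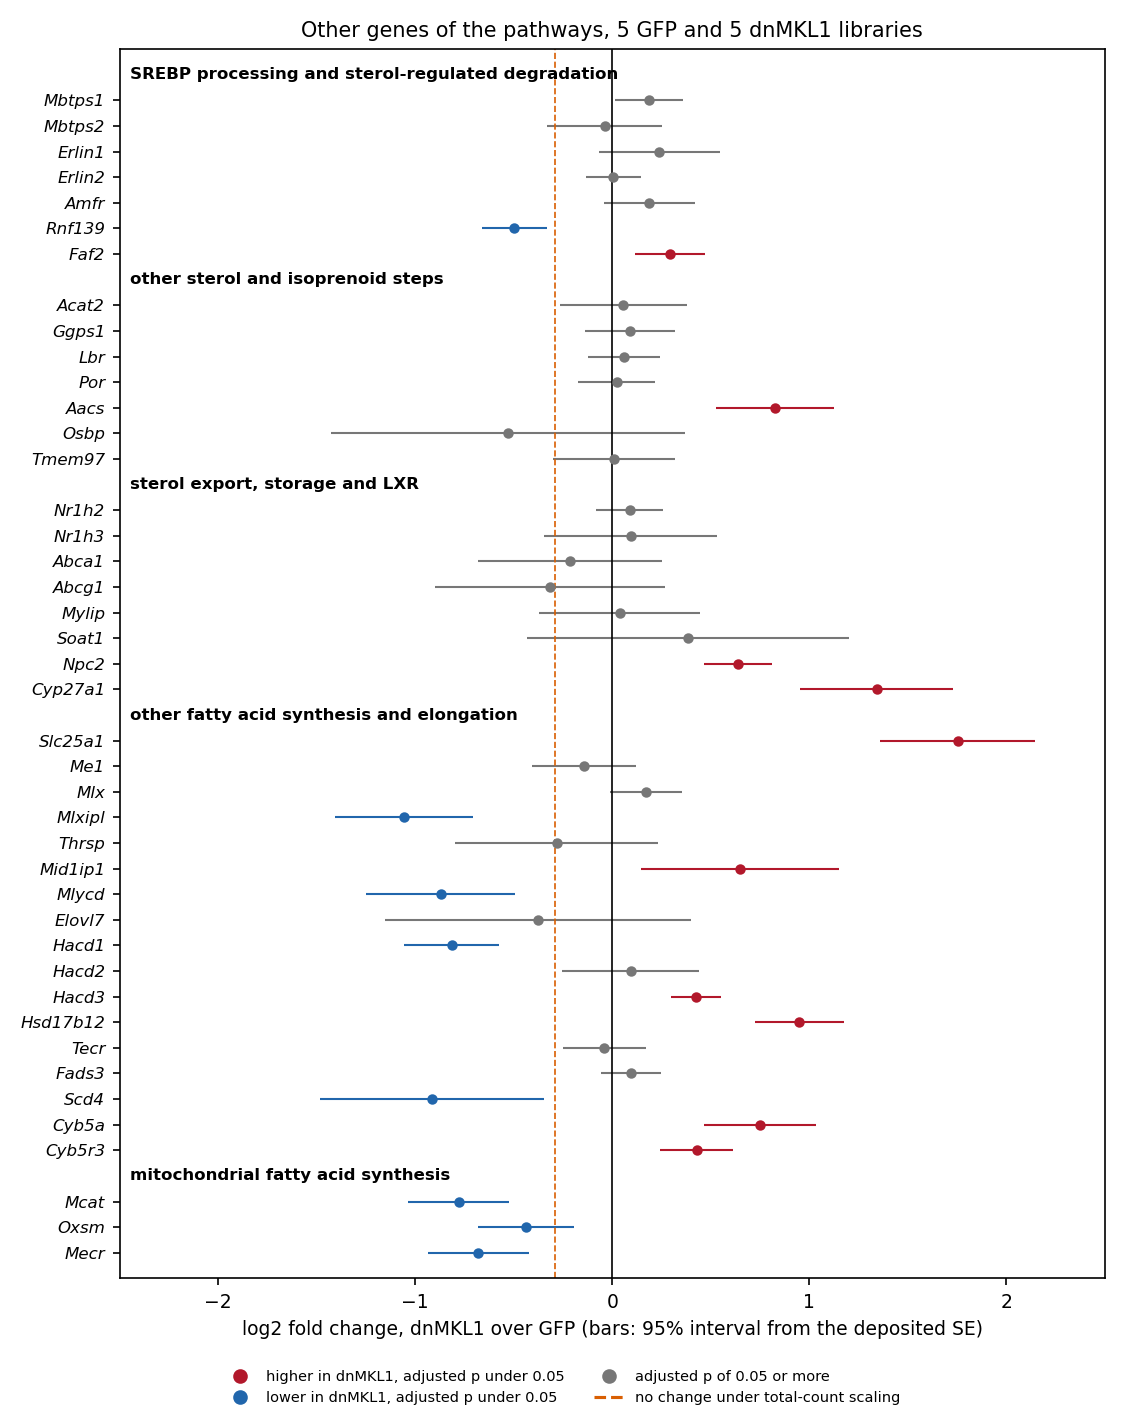
Log2 fold change (dnMKL1 over GFP, x axis) with 95% interval from the deposited SE for the 42 other pathway genes with an adjusted p, coloured by call; the dashed line at -0.29 marks no change under total-count scaling. Slc25a1 at 1.75 is the highest point, and the 3 listed genes of mitochondrial fatty acid synthesis all lie left of 0.

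Markers of the sorted cells and of other cells were read beside these values. The 8 cardiomyocyte markers were led by Myh6 with a base mean of 594986, and 6 of the 8 were lower with dnMKL1 in the authors' deposited table (4 under total-count scaling). Of the 8 markers of adipocytes, which make much fatty acid, Adipoq, Retn and Lep were listed at 0, and the base means of Plin1, Cidec and Cfd were 0.0726, 0.145 and 0.218 in the authors' deposited table. Fabp4, which capillary endothelium also expresses, held most of the list's signal, with a base mean of 825 and a log2 fold change of -0.11 (SE 0.52, adjusted p = 0.908) in the authors' deposited table, and the sums over the list were 885 (GFP) and 852 (dnMKL1) normalized counts. Pparg, on the same list and also expressed outside adipocytes, rose by 1.05 (SE 0.30, adjusted p = 0.0019) in the authors' deposited table. Of the 8 fibroblast markers 3 were higher (Col1a1, Col1a2 and Col3a1) and 0 lower, and the sums of their implied means were 3539 (GFP) and 4913 (dnMKL1) normalized counts. Under total-count scaling 6 of the 8 fibroblast markers and 4 of the 7 mural markers were higher, against 40.4% of all genes. The 8 endothelial markers had 0 calls and 0 unadjusted p-values under 0.05, with sums of 2925 and 2997. The macrophage markers had 1 of 7 higher (Cd68), with sums of 146 and 131, and the mural markers 2 of 7 higher (Cspg4 and Myh11), with sums of 7754 and 10873, of which Abcc9, also expressed in heart muscle, made 6332 and 7773. Of the 4 Schwann cell markers with an adjusted p-value, S100b was higher and Erbb3 lower. The fold change was positive for 3 of these 4 and negative for 1, with a median log2 fold change of 0.26. The sums over the list were 286 and 196, of which Erbb3 made most in both groups. The part of such cells in the values of the sterol and fatty acid genes was not tested.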

How the data were processed

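RNA from sorted cardiomyocytes was sequenced in 10 libraries, grouped by title into 5 GFP and 5 dnMKL1. Per the labels' protocols, a SMART-Seq kit made cDNA from 10 ng of RNA with 8 PCR cycles, and 500 pg entered Nextera XT, a kit that does not mark strand, so that antisense and overlapping genes cannot be told apart. Per the submitters' processing notes, STAR 2.5.3a, featureCounts in Subread 1.5.2 and the build mm10 were used; the annotation is not given in the sources used here.

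The deposited file is a comparison by the authors whose headers are those DESeq2 writes. The base mean deposited by the authors is a signal, the mean over libraries of counts that were normalized before deposit, per the file headers. Fold change and SE were deposited in log2 units. The authors' Wald statistic, a score, equals fold change over SE (largest gap 1.14e-05), and the deposited p-value is its two-sided normal p-value, adjusted over 14056 genes by the Benjamini-Hochberg method (largest gap on recomputing 1.44e-07). The 95% intervals are the fold change with the normal quantile times the SE. Implied group means take the base mean as the average of equal groups. Size factors came from genes with 1 read in 1 library. Levels per kilobase use the longest coding transcript in GENCODE M21 (GRCm38, the build of mm10). Older symbols were matched through RefSeq synonyms. Computing used Python 3.11.15, pandas 2.3.3 and scipy 1.17.1, and the adjustment and the solved dispersions were tested on simulated data.

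The genes and lists were chosen with earlier results of these data known. The plan was to name all 35 genes, listed genes past the threshold of 0.05 (else the 2 with the largest base mean), and Mkl1. Of the cardiomyocyte markers past the threshold only Myh6 was named, and no endothelial marker was named. Other listed genes were named after their values were seen. Alternatives were total-count scaling, median-centring, other thresholds and filters. Per-library counts were not used here. The value of 1 listed marker is not reported here.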

Additional observations from a re-analysis of the deposited data

How the results depend on the processing

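Values per library are not used here, so leaving out each replicate was not run, and whether 1 library decides a value is unknown. No paired analysis was possible because the table holds 1 fold change per gene and no values by replicate number. Under total-count scaling, which adds 0.29 to every value, 21 genes were higher and 2 lower in place of 12 and 5, 21 other pathway genes were higher in place of 10, and the median of the 35 genes moved from 0.17 to 0.46. Among all genes 40.4% were then higher and 6.60% lower, in place of 16.6% and 17.4%. Total-count scaling reversed 6 genes: Pmvk to 0.043, Idi1 to 0.25, Fdps to 0.22, Sc5d to 0.26, Insig2 to 0.0057 and Elovl6 to 0.067. Of these, Fdps and Sc5d passed as higher (adjusted p = 0.036 and 0.029). A further 7 genes passed as higher, and Hmgcs1 no longer passed as lower. The constant itself is the whole of this effect, and which scaling is closer to RNA per cell was not tested. Requiring also a change of at least 0.5 left 11 genes, with 9 up and 2 down, since fewer can pass. Of the 35 genes, 35 kept their call with median-centring and 34 with adjustment over all p-values, where Pmvk did not pass (adjusted p = 0.061). At a threshold of 0.01 Pmvk and Srebf2 did not pass, and at 0.1 Acacb did. Counting only genes under their current symbol, an alternative chosen after seeing the data, gave the same 17 calls and a median of 0.15. Genes with base means under 10, here Scd1 and Elovl6, have intervals too wide to show a change of the size seen in the others.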
